A study of Mus musculus with 6 samples.

Results

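Genes of the actin cytoskeleton and its regulation, together with the intermediate filament gene Vim, were followed in basal cells sorted from mouse esophageal epithelium. The 10 genes are the thymosins Tmsb4x and Tmsb10, the actins Actb and Actg1, the actin regulators Pfn1, Cfl1, Gsn, Tagln2 and Tpm4, and Vim. They are 10 of the 24016 genes kept from the deposited table. They were chosen by name, and the set was drawn up because Gsn and Vim had been seen to lie lower in the Krt15-positive libraries. The differences between the groups are therefore given for these 10 genes as descriptions, without a test.

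The Krt15-positive group (3 libraries) held CD29-high, GFP-positive cells, and the Krt15-negative group (3 libraries) held CD29-high, GFP-negative cells. All mice carried the Krt15-CrePR1 and R26mTomato/mGFP alleles. Krt15-CrePR1 is a Cre recombinase that a steroid drug switches on and that a Krt15 promoter drives, and R26mTomato/mGFP is a reporter that turns from membrane Tomato to membrane GFP once Cre has acted. All were given 1 mg of RU486 (mifepristone) and sampled 24 h later. CD29 is integrin beta-1, used as the marker of basal cells. GFP marks recombination and not the level of Krt15, so cells that express Krt15 but did not recombine fall in the Krt15-negative group. Animal age and strain were not given in the labels, and whether each library stands for its own animal is not said there. The sample names carry 3 identifiers, each shared by the Krt15-positive and Krt15-negative library of 1 replicate number, and what the identifiers stand for is not stated. The libraries were compared as unpaired. The study compared the transcriptomes of these 2 kinds of basal cell.

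Actin filaments form from actin monomers and turn over constantly. Thymosins hold monomers in reserve, profilin hands them to growing filament ends, and cofilin and gelsolin cut filaments and free monomers for reuse. Tropomyosins and transgelins lie along filaments and stabilise them. Basal keratinocytes use this system for shape, adhesion and movement, and their main intermediate filaments are keratins. Vimentin is the intermediate filament protein of mesenchymal cells, leukocytes and endothelium.

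Both paralog pairs in the set can be told apart by their coding sequences. The thymosin coding sequences are shown because Tmsb4x and Tmsb10 lie far apart in level. They are 132 bases long without the stop codon, written 5′ to 3′ from GENCODE M21 transcripts, with capitals at the 40 positions where they differ:
Tmsb4x: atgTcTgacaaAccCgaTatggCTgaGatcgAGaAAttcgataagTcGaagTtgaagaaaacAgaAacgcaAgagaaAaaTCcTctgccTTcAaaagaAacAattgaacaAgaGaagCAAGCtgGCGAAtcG
Tmsb10: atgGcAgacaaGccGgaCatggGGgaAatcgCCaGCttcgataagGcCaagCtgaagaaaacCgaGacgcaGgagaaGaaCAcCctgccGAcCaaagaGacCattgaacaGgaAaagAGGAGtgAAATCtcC
The longest stretch identical at the same positions was 10 bases, and identity was 69.7%. The 2 actins are much closer, with 88.6% identity over 1125 coding bases and a longest identical stretch of 62 bases. The first 60 coding bases are shown, since the actin proteins are known to differ mainly at their amino terminus, with capitals at the 9 positions that differ:
Actb: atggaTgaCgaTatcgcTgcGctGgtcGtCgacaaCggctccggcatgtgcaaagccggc
Actg1: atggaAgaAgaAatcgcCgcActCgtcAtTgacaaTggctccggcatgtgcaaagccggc

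How far a value can be tied to 1 gene differed among the 10. For Tmsb4x, Pfn1, Gsn, Tagln2 and Vim, no coding stretch of 50 bases occurred in a transcript of another gene. For Actg1, 100% of such stretches did, largely in processed pseudogenes such as Gm12715 and Gm8399, which are not rows of the table. The share was 78.3% for Tmsb10, 50.1% for Cfl1, 48.1% for Tpm4 and 19.7% for Actb. Values of these 5 genes are uncertain to the extent that reads were shared with such copies. Only coding bases were searched, 132 of 768 transcript bases in Tmsb4x and 132 of 690 in Tmsb10. The untranslated parts, which also yield reads, were not checked in any of the 10, so the shares are not shares of an FPKM value.

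All values are FPKM, fragments per kilobase of transcript, scaled to library size, as the authors estimated them. Depth, inferred from the size of a single-fragment step, was 27.5 to 34.2 M fragments (M, mega) in the Krt15-positive libraries and 29.1 to 41.9 M in the Krt15-negative ones. The Krt15-negative replicate 1 library stood apart. It had 3247 genes at 1 FPKM or more, against 6906 to 9194 in the other 5 libraries, and it listed at 0 a total of 316 genes that were at 10 FPKM or more in each of the other 5. An exact 0 in this table may thus not mean that a gene was off, and why these genes were at 0 was not tested. The basal keratin genes Krt5, Krt14 and Krt15 were at 369 FPKM or more in every library. The summed level of 8 suprabasal markers was still above that of 10 basal markers in all 6. Most of the suprabasal sum was Krtdap, at 7254 FPKM or more, except in Krt15-negative replicate 3, where it was listed at 0. In most libraries the order of the 2 sums thus leans on this 1 gene. Itgb1, which encodes the sort marker CD29, had 23.4, 43.3 and 10.8 FPKM in the Krt15-positive libraries and 1.03, 20.7 and 16.7 FPKM in the Krt15-negative ones. The transcription factor gene Trp63 had 37.2 to 87.2 FPKM in the Krt15-positive libraries, against 0.459, 30.8 and 39.3 FPKM in the Krt15-negative ones.

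Over the 9423 genes whose mean reached 1 FPKM, which included all 10 genes described here, limma called 0 genes (0%) at a Benjamini-Hochberg adjusted p below 0.05. The smallest adjusted p was 0.40, and 370 genes (3.93%) had an unadjusted p below 0.05. Differences are given below as Krt15-positive minus Krt15-negative, in units of log2(FPKM + 1). Their median over all these genes was 0.63, and leaving out Krt15-negative replicate 1 gave a median of 0.03. In bulk RNA of this kind, fewer cells of a type and less RNA per cell cannot be told apart.

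The thymosins were led by Tmsb4x, which encodes the main monomer-holding peptide of many mammalian cells. Its level was 12128, 9492 and 10233 FPKM in the Krt15-positive libraries, against 19703, 12431 and 13806 FPKM in the Krt15-negative ones. It ranked between the first and the 4th most abundant gene in each library and took 1.32% to 1.85% of the summed FPKM. The groups did not overlap, although the highest Krt15-positive value and the lowest Krt15-negative value lay close together. The means were 10618 ± 1360 and 15313 ± 3863 FPKM (SD, n = 3 each), a difference of -0.51 (SE 0.17). The difference kept its sign in all 18 other settings, from -0.97 with upper-quartile scaling to -0.31 when Krt15-negative replicate 1 was left out. The groups did overlap under each of the 3 other scalings (upper-quartile, median-of-ratios and quantile).

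Tmsb10, the second thymosin, was far less abundant per length. Its level was 128, 377 and 156 FPKM in the Krt15-positive libraries, against 364, 306 and 220.1 FPKM in the Krt15-negative ones. The highest and the 2 lowest of the 6 values were all Krt15-positive, so the groups overlapped. The difference was -0.56 (SE 0.61, 95% interval -1.90 to 0.77). Leaving out Krt15-positive replicate 1 gave -0.26, leaving out Krt15-positive replicate 2 gave -1.03, and leaving out replicate 1 of both groups gave -0.10. Within a library, the FPKM of Tmsb4x was 25.2 to 95.01 times that of Tmsb10 in the Krt15-positive group and 40.6 to 62.7 times in the Krt15-negative group. The third kind of thymosin gene, Tmsb15, was weak or listed at 0. Tmsb15l had 14.1, 15.6 and 0 FPKM in the Krt15-positive libraries and 0, 0 and 8.26 FPKM in the Krt15-negative ones.

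**Figure D1:**
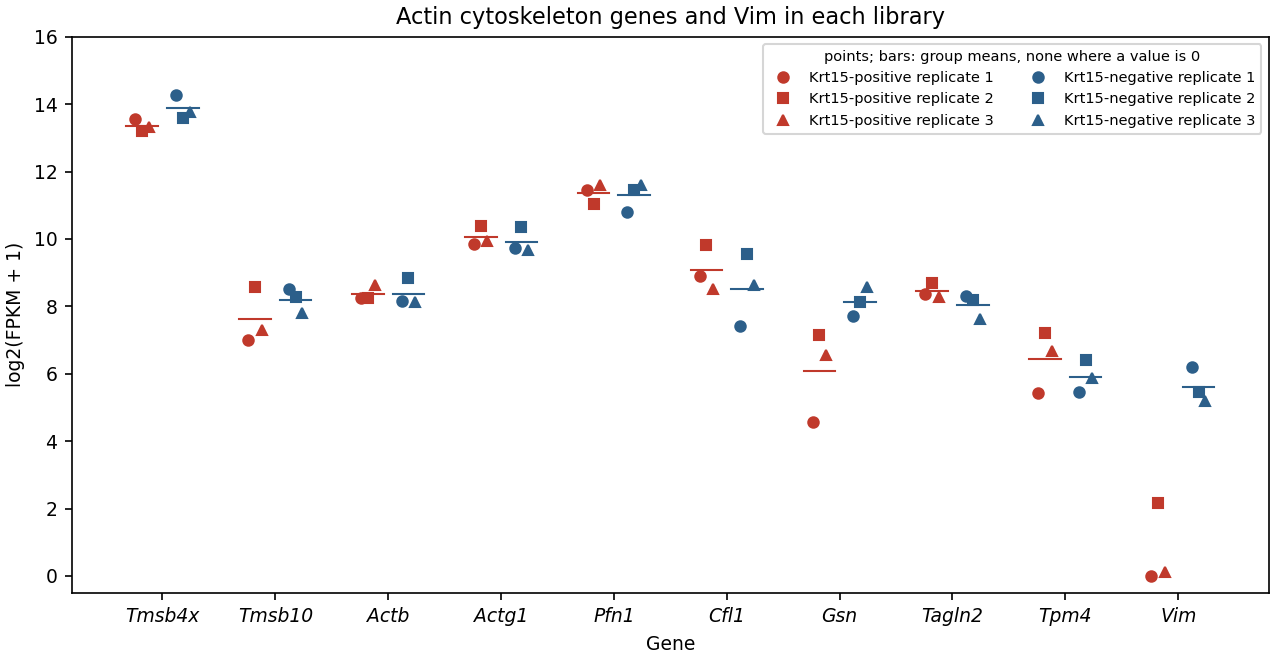
FPKM of the 10 genes in each library, as log2(FPKM + 1) on the vertical axis, with Krt15-positive libraries (red) left of Krt15-negative ones (blue) for each gene. Points are libraries and bars are group means, left out where a value is 0; Tmsb4x sits at the top throughout, and Vim has its 3 Krt15-positive points at 3.51 FPKM or less.

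The cytoplasmic actins, beta (Actb) and gamma (Actg1), overlapped between the 2 groups. Actb measured 302, 305 and 399.6 FPKM in the Krt15-positive libraries and 283, 453 and 281 FPKM in the Krt15-negative ones. Its difference was 0.0089 (SE 0.49), with a 95% interval of -1.07 to 1.09, which leaves room for a change of either sign. Actg1 measured 918, 1325 and 981 FPKM in the Krt15-positive libraries and 855, 1308 and 808 FPKM in the Krt15-negative ones, a difference of 0.13 (SE 0.35, 95% interval -0.63 to 0.90). Within each shared identifier the Krt15-positive value of Actg1 was the higher one, but that of Actb was the lower one in replicate 2. How many of all genes hold 1 order within every identifier was not counted. The sign of both differences turned with upper-quartile scaling, to -0.45 for Actb and -0.33 for Actg1.

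Actg1 was above Actb in every library. The ratio of their FPKM was 3.04, 4.35 and 2.46 in the Krt15-positive libraries and 3.02, 2.89 and 2.88 in the Krt15-negative ones. The Krt15-positive ratios lay on both sides of the Krt15-negative ones. The muscle actins were near absent by comparison. Acta1, of skeletal muscle, was at 0.574 FPKM or less in all 6 libraries. Acta2, of smooth muscle and myofibroblasts, had 0.014, 9.94 and 9.79 FPKM in the Krt15-positive libraries and 0.047, 0.132 and 5.94 FPKM in the Krt15-negative ones.

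Profilin and cofilin, which add and remove actin monomers, did not separate the groups. Pfn1, the monomer-delivering profilin, had 2781, 2111 and 3127 FPKM in the Krt15-positive libraries and 1794, 2814 and 3116 FPKM in the Krt15-negative ones (2673 ± 516 and 2575 ± 692, SD, n = 3 each). Its difference was 0.07 (SE 0.27) and turned to -0.39 with upper-quartile scaling, and leaving out Krt15-negative replicate 1 gave -0.17. It was the second most abundant of the 10 in every library.

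Cfl1, the filament-severing cofilin of non-muscle cells, ranged more widely. It had 479, 912 and 365 FPKM in the Krt15-positive libraries and 169, 746 and 396 FPKM in the Krt15-negative ones. Its difference of 0.56 (SE 0.60) depended on single libraries. It became -0.0025 when Krt15-negative replicate 1, its lowest value, was left out. Leaving out Krt15-positive replicate 2 gave 0.18, and leaving out Krt15-negative replicate 2 gave 1.065. The ratio of Pfn1 to Cfl1 was 2.32 to 8.56 in the Krt15-positive libraries and 3.77 to 10.6 in the Krt15-negative ones.

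Gelsolin (Gsn), which severs filaments and caps their ends, was lower in each Krt15-positive library than in any Krt15-negative one. It had 22.6, 141 and 92.3 FPKM in the Krt15-positive libraries and 210.5, 277 and 384 FPKM in the Krt15-negative ones. The lowest value by far was that of Krt15-positive replicate 1. The means were 85.1 ± 59.3 and 290.5 ± 87.6 FPKM (SD, n = 3 each), a difference of -2.06 (SE 0.79). Leaving out Krt15-negative replicate 1 gave -2.27, and leaving out Krt15-positive replicate 1 gave -1.30. The groups also stayed apart under the 3 other scalings.

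Gsn was low relative to other actin genes as well. Set against the summed FPKM of both cytoplasmic actins, it made up 0.0185, 0.0863 and 0.0668 in the Krt15-positive libraries and 0.185, 0.157 and 0.353 in the Krt15-negative ones, without overlap. Capg, a capping protein of the gelsolin family, had 385, 753 and 464 FPKM in the Krt15-positive libraries and 167, 875 and 893 FPKM in the Krt15-negative ones. Its difference was 0.01 (SE 0.64, limma adjusted p = 0.99). The ratio of Gsn to Capg was 0.0588 to 0.199 in the Krt15-positive libraries and 0.316 to 1.26 in the Krt15-negative ones. These ratios rest on the same Gsn values that led to the choice of the gene.

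Transgelin-2 (Tagln2) and tropomyosin 4 (Tpm4), which bind along filaments, had differences above 0, each smaller than its SE. Tagln2 had 328, 415 and 310.4 FPKM in the Krt15-positive libraries and 318, 289 and 196 FPKM in the Krt15-negative ones. The groups overlapped at 1 point, the Krt15-negative replicate 1 value lying above the lowest Krt15-positive one. Tagln2 was higher without overlap with median-of-ratios scaling, with quantile normalization and with that library left out, but not with upper-quartile scaling. Of all genes, 10.3%, 4.01% and 10.8% were higher without overlap in the first 3 of these settings. Within each shared identifier the Krt15-positive value of Tagln2 was the higher one, an order whose share over all genes was not counted. Its difference of 0.41 (SE 0.51) was -0.05 with upper-quartile scaling, while quantile normalization gave 0.67.

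Tpm4 had 41.7, 147 and 102 FPKM in the Krt15-positive libraries and 42.6, 83.4 and 58.0 FPKM in the Krt15-negative ones. Its lowest value was Krt15-positive, and so were its 2 highest. The difference was 0.53 (SE 0.82), between 0.07 and 1.04 in the other settings.

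Vim was present in each Krt15-negative library and near the floor of the table in the Krt15-positive ones. It was listed at 0 in Krt15-positive replicate 1, and had 3.51 FPKM in replicate 2 and 0.0744 FPKM in replicate 3. In the Krt15-negative libraries it had 72.5, 43.2 and 35.5 FPKM. The groups lay far apart. The difference, -4.86 (SE 1.14), depends on the pseudocount, and was -6.92 with a pseudocount of 0.1 and -3.15 with one of 5. Vim ranked between 1168 and 2114 by level in the Krt15-negative libraries and between 7137 and 11038 in the Krt15-positive ones. Even in the Krt15-negative libraries its FPKM was 0.0135 to 0.0683 times that of Krt14, against at most 0.0012 times in the Krt15-positive ones.

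**Figure D2:**
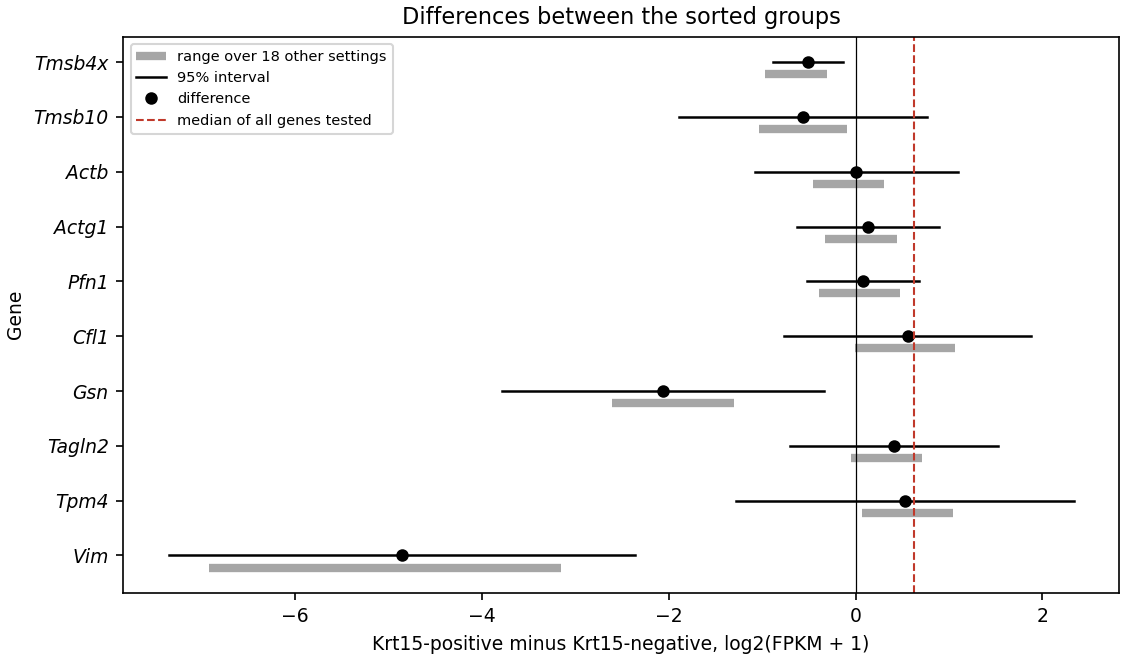
Difference of each gene, Krt15-positive minus Krt15-negative in log2(FPKM + 1) on the horizontal axis, with its 95% interval (black) and the range over 18 other settings (grey). The dashed line is the median of all genes tested, 0.63; Gsn at -2.06 and Vim at -4.86 lie farthest from it.

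The differences of the 10 genes had both signs. The difference was below 0 in 4 of them (Tmsb4x, Tmsb10, Gsn and Vim), where 31.4% of all genes tested lay below 0. With upper-quartile scaling 8 of the 10 lay below 0. The median of the 10 was 0.04, against 0.63 over all genes, and 10 of 10 lay below that all-gene median. With quantile normalization 4 of 10 lay below the all-gene median of that setting, 0.04. When Krt15-negative replicate 1 was left out, 7 of the 10 lay below 0, and 7 below the all-gene median. The groups did not overlap in 3 of the 10, all lower in Krt15-positive libraries, where 2.44% of all genes were lower without overlap. Since the set was chosen on this contrast, nothing is read from that count.

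Level mattered for this background. Among the 1034 genes with a mean of 100 FPKM or more, which include 8 of the 10, the median difference was -0.22. Of these abundant genes, 64.4% lay below 0 and 9.96% were lower without overlap. The difference of Tmsb4x, -0.51, lay nearer to that median than to the median of all genes.

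The 10 genes varied unequally between libraries of 1 group. The SD within groups on the log2 scale was 0.28 for Tmsb4x, 0.30 for Tagln2, 0.32 for Actb, 0.33 for Actg1 and 0.36 for Pfn1. These 5 lay below the median of abundant genes, 0.61. It was 0.64 for Tmsb10, 0.73 for Tpm4, 0.90 for Cfl1, 0.94 for Vim and 1.00 for Gsn.

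Most fibroblast and leukocyte markers tested had a difference below 0, like Vim and Gsn, but the summed levels of both lists overlapped between the groups. The summed level of 12 fibroblast markers was 72.4 to 188 FPKM in the Krt15-positive libraries and 121 to 768 FPKM in the Krt15-negative ones. Most of the Krt15-positive sum was decorin (Dcn), a matrix proteoglycan. Without Dcn, a choice made after its values were seen, the sum was 4.96, 12.3 and 1.30 FPKM in the Krt15-positive libraries and 107, 120.03 and 311 FPKM in the Krt15-negative ones. Of the 10 fibroblast markers tested, 9 had a difference below 0, and 5 were lower without overlap: the collagen genes Col1a1, Col1a2 and Col3a1, Dpt and Mfap5. Over all genes tested, 31.4% lay below 0 and 2.44% were lower without overlap. None of the 12 was at 0 in all libraries.

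The summed leukocyte markers overlapped between the groups. Of 9 tested, 8 had a difference below 0 and 1, Tyrobp, was lower without overlap. The sum over 12 genes was 7280, 121 and 77.1 FPKM in the Krt15-positive libraries and 606, 981 and 769 FPKM in the Krt15-negative ones. Lysozyme (Lyz2), whose difference was above 0, made up nearly all of the value in Krt15-positive replicate 1. Without it, again a choice made afterwards, the sum was 0.856, 57.6 and 48.7 FPKM in the Krt15-positive libraries and 267, 981 and 462 FPKM in the Krt15-negative ones. Single libraries weighed heavily in these sums, with Nkg7 at 459 and Cd52 at 237 FPKM in Krt15-negative replicate 2. The pan-leukocyte gene Ptprc reached 3.95 FPKM in Krt15-negative replicate 2 and was at 0.0617 FPKM or less elsewhere. The part of fibroblast or leukocyte RNA in the Vim, Gsn and thymosin values was not tested.

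**Figure D3:**
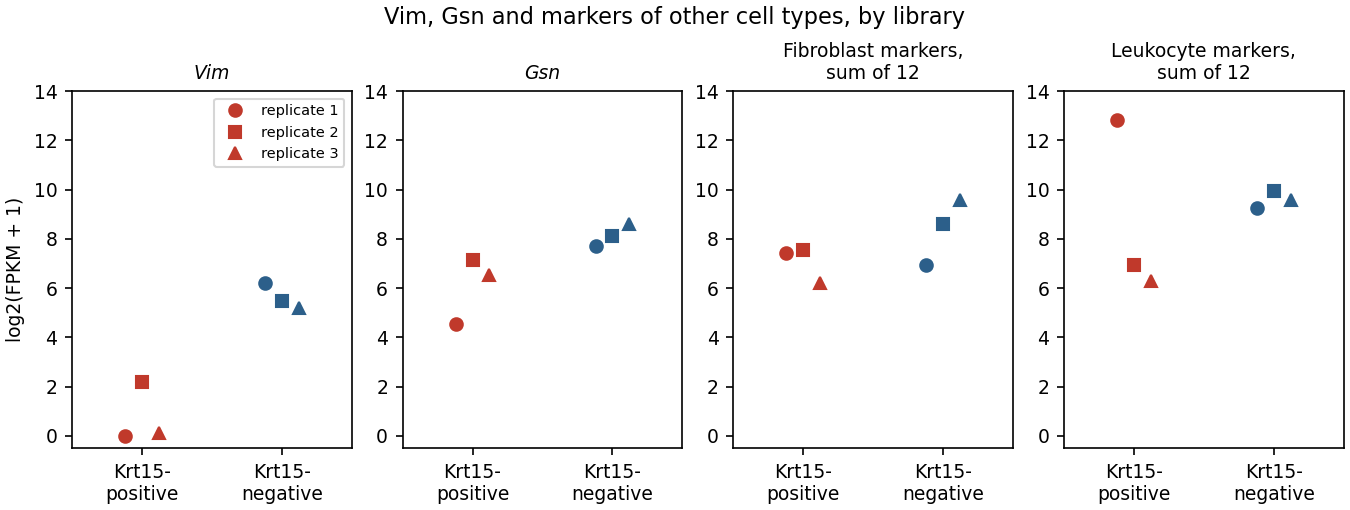
Vim, Gsn and the summed FPKM of 12 fibroblast and 12 leukocyte markers, as log2(FPKM + 1), in each Krt15-positive (red, left) and Krt15-negative (blue, right) library. Vim and Gsn separate the groups, while both marker sums overlap, the leukocyte sum through the 7280 FPKM of Krt15-positive replicate 1.

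Markers of muscle, vessels and pericytes were low, and their sums overlapped between the groups. The smooth muscle markers Myh11, Cnn1, Actg2 and Lmod1 were listed at 0 in all 6 libraries, as were the endothelial markers Cdh5, Emcn and Cldn5. The smooth muscle list summed to at most 9.94 FPKM in the Krt15-positive libraries and 7.03 FPKM in the Krt15-negative ones, most of it Acta2. The endothelial list summed to at most 14.7 FPKM in the Krt15-positive libraries and 17.1 FPKM in the Krt15-negative ones, led by Esam. The pericyte sum stayed at 1.98 FPKM or less, with Rgs5 and Kcnj8 at 0 throughout. The skeletal muscle list reached 20.9 FPKM in the Krt15-positive libraries and 17.2 FPKM in the Krt15-negative ones, led by Mylpf, with Myh4 and Atp2a1 at 0.

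The keratinocyte markers did not follow Vim or Gsn. Of the basal markers tested, 1 of 10 had a difference below 0, and of the suprabasal ones 2 of 7, where 31.4% of all genes tested lay below 0. In neither list was a marker lower without overlap. The 10 basal markers summed to 5739, 14146 and 3918 FPKM in the Krt15-positive libraries and 4008, 11129 and 5291 FPKM in the Krt15-negative ones. The 8 suprabasal markers summed to 8786, 23621 and 51270.1 FPKM in the Krt15-positive libraries and 36672, 30959 and 7472 FPKM in the Krt15-negative ones. Krtdap, listed at 0 in Krt15-negative replicate 3, was the largest suprabasal value in the others.

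The genes whose pattern over the 6 libraries was most like that of each gene were sought among the 4177 genes whose mean reached 10 FPKM. For Vim these were Igfbp6, an IGF-binding protein (Pearson correlation 0.97 of log2(FPKM + 1) over 6 libraries), Cks2, a cell cycle kinase subunit, and Prdx2, a peroxiredoxin (0.96 each). Igfbp6 had 0, 4.04 and 0.0548 FPKM in the Krt15-positive libraries and 65.2, 75.0 and 162 FPKM in the Krt15-negative ones. Prdx2 had 401, 578 and 344 FPKM in the Krt15-positive libraries and 863, 688 and 692 FPKM in the Krt15-negative ones, so its range was far narrower than that of Vim.

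For Gsn the nearest were the glutathione transferase genes Gstp2 (0.99) and Gstp1 (0.98) and the calcium-binding gene S100a16 (0.99). S100a16 had 1338, 2343 and 2114 FPKM in the Krt15-positive libraries and 2781, 2618 and 3187 FPKM in the Krt15-negative ones. Tpm4 was most like the connexin gene Gja1 (0.99), Actb most like the elongation factor gene Eef1d (0.98) and Actg1 most like Strap (0.99). With 6 libraries and 4177 candidates, values this high are a ranking and no measure of shared control.

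The rest of the actin machinery was taken from 11 lists of 122 genes, none of them among the 10. Of these, 78 passed the filter on low values and 0 were called at an adjusted p below 0.05 in either direction, the smallest limma adjusted p being 0.79. Fscn1 and Mkl2, named after their values were seen, had an unadjusted p below 0.05. The difference was above 0 in 61 of the 78, with a median of 0.77 beside 0.63 for all genes. With Krt15-negative replicate 1 left out it was above 0 in 39 of 80, with a median of -0.06 beside 0.03 for all genes. The lists as a whole thus followed the genes at large in both cases.

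**Figure D4:**
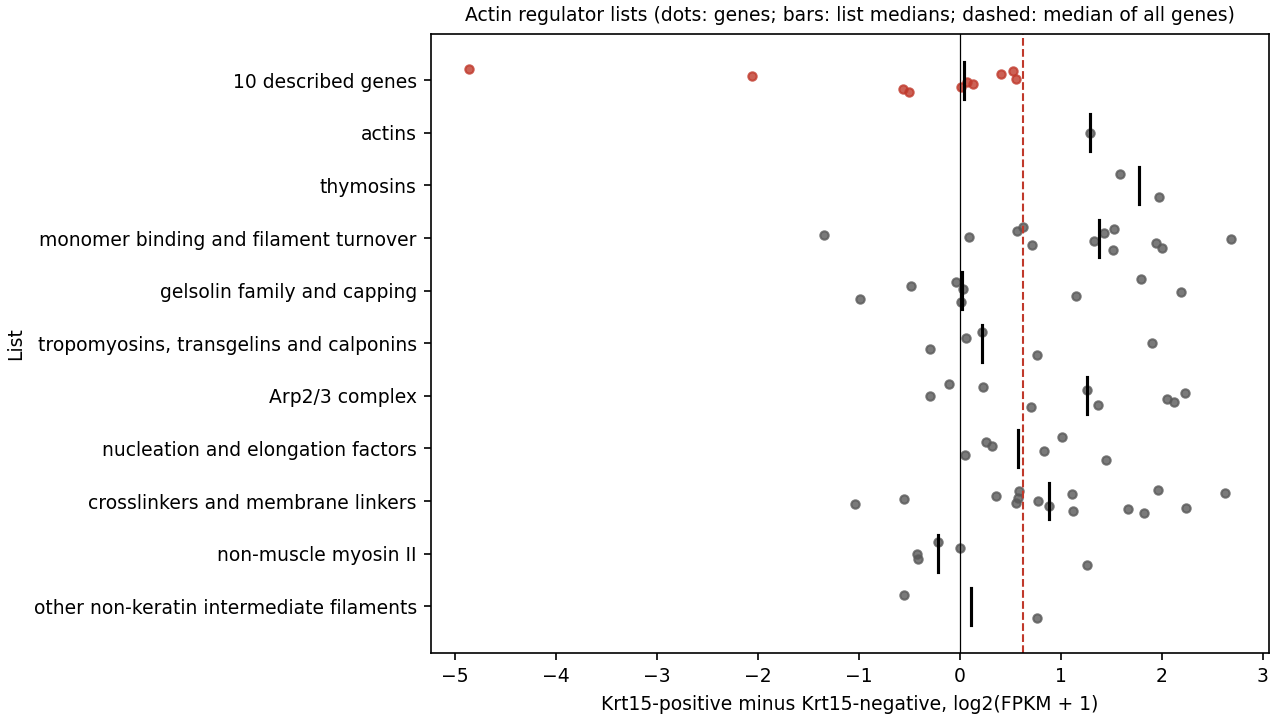
Difference of each tested gene, Krt15-positive minus Krt15-negative in log2(FPKM + 1), for 10 of the 11 lists, with the 10 described genes in red in the top row. Bars are list medians and the dashed line is the median of all genes, 0.63; the myosin II list has its median at -0.21 and the monomer binding list at 1.37.

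Genes of monomer binding and filament turnover had 11 of 12 tested members above 0. Destrin (Dstn), a close relative of cofilin, had 296, 498 and 392.1 FPKM in the Krt15-positive libraries and 79.6, 457 and 356 FPKM in the Krt15-negative ones (difference 0.71, SE 0.68). Coronin 1B (Coro1b) had 33.2, 147 and 70.8 FPKM in the Krt15-positive libraries and 0.0579, 235 and 74.7 FPKM in the Krt15-negative ones. In both genes the lowest value of the 6 was that of Krt15-negative replicate 1.

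In the gelsolin family and capping list, 5 of 8 tested genes lay above 0. Capzb, a subunit of the heterodimer that caps filament ends, had 171, 243 and 325 FPKM in the Krt15-positive libraries and 181, 327 and 248 FPKM in the Krt15-negative ones (difference -0.04, SE 0.56). Among tropomyosins, transgelins and calponins, 4 of 5 lay above 0. Tpm2 had 89.1, 137 and 92.1 FPKM in the Krt15-positive libraries and 72.9, 181 and 157 FPKM in the Krt15-negative ones, more than Tpm4 in 4 of 6 libraries. Tpm1 had 139.5, 92.5 and 44.1 FPKM in the Krt15-positive libraries and 12.6, 148 and 58.2 FPKM in the Krt15-negative ones.

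The Arp2/3 complex starts branched filaments, and each of its 9 subunit genes passed the filter, 7 of them above 0. Arpc2 had 216, 534 and 341 FPKM in the Krt15-positive libraries and 309, 567 and 414 FPKM in the Krt15-negative ones (difference -0.29, SE 0.52). Arpc5 had 139, 147 and 183 FPKM in the Krt15-positive libraries and 40.3, 261 and 216 FPKM in the Krt15-negative ones. Nucleation and elongation factors were weak, with 6 of 17 passing the filter and all 6 above 0. The most abundant were Vasp and Cttn (cortactin), with mean FPKM of 23.8 and 20.1 over the 6 libraries.

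Crosslinkers and membrane linkers had 13 of 15 tested genes above 0. Ezrin (Ezr), which ties actin to the membrane, had 79.9, 105 and 71.7 FPKM in the Krt15-positive libraries and 50.3, 84.8 and 43.4 FPKM in the Krt15-negative ones. Actn4, an alpha-actinin, had 25.5, 117 and 14.5 FPKM in the Krt15-positive libraries and 1.39, 30.6 and 13.3 FPKM in the Krt15-negative ones. In non-muscle myosin II, 4 of 5 tested genes lay below 0. The light chain gene Myl6 had 1669, 1468 and 1584 FPKM in the Krt15-positive libraries and 3208, 1420.1 and 2086 FPKM in the Krt15-negative ones (difference -0.43, SE 0.32). Myl12b had 492, 296 and 595 FPKM in the Krt15-positive libraries and 489, 463 and 596 FPKM in the Krt15-negative ones.

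SRF is a transcription factor that switches on actin genes with its cofactors, encoded by Mkl1 and Mkl2, when monomers run low. These 3 genes, named after their values were seen, did not overlap between the groups, where 8.85% of all genes were higher without overlap, but none of the 3 stayed apart with quantile normalization and Srf did not with upper-quartile scaling. Srf had 10.8, 6.55 and 23.7 FPKM in the Krt15-positive libraries and 0.451, 0.0172 and 5.92 FPKM in the Krt15-negative ones (limma adjusted p = 0.79). Mkl2 had 20.2, 4.87 and 5.43 FPKM in the Krt15-positive libraries and 0.134, 0.00834 and 2.23 FPKM in the Krt15-negative ones. Mkl1 had 1.66, 0.8003 and 7.28 FPKM in the Krt15-positive libraries and was listed at 0 in the Krt15-negative ones. Over the 11 lists 13 of 78 genes were higher without overlap. The count was 11 with upper-quartile scaling (9.08% of all genes), 14 with median-of-ratios scaling (10.3%) and 4 with quantile normalization (4.01%). It was 14 with Krt15-negative replicate 1 left out (10.8%). Lower without overlap were 1 of 78 as deposited (2.44% of all genes) and 1 to 4 in these other settings (1.62% to 8.95%).

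The non-keratin intermediate filament genes other than Vim were mostly absent. Of 8, the lamins Lmna and Lmnb1 passed the filter. Lmna had 195, 684 and 257 FPKM in the Krt15-positive libraries and 48.9, 482 and 291 FPKM in the Krt15-negative ones. Lmnb1 had 0.484, 7.80 and 5.74 FPKM in the Krt15-positive libraries and 16.1, 2.91 and 3.19 FPKM in the Krt15-negative ones. Des, the muscle counterpart of Vim, reached 1.00 FPKM in 1 Krt15-negative library and was at 0.0108 FPKM or less elsewhere.

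Promoter windows from 250 bases before to 50 after the start (RefSeq, GRCm38.p6) were at hand for 9 of the 10 genes, Actb having none there. They were searched on both strands for the CArG box, the site that SRF binds, for GGGCGG and for TATAAA, and the motifs may overlap. A CArG box was found in 1 of the 9 genes, Actg1, and in 1.63% of 32851 promoter windows. GGGCGG was found in 8 of the 9, and in 35.7% of windows. TATAAA was found in Vim alone among the 9, and in 13.6% of windows. The windows of Actg1 and Vim are shown because they hold the less common motifs, with all 3 motifs in capitals. The Actg1 window is chr11:120348446-120348745 on the minus strand, with the CArG box starting at position -90:
Actg1: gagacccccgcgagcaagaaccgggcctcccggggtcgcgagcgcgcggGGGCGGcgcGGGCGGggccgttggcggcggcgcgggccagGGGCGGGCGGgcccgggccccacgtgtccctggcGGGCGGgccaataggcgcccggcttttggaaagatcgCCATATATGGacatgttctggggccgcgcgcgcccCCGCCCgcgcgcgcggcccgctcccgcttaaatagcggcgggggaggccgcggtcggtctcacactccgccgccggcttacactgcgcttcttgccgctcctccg
The Vim window is chr2:13574061-13574360 on the plus strand, with TATAAA starting at position -32:
Vim: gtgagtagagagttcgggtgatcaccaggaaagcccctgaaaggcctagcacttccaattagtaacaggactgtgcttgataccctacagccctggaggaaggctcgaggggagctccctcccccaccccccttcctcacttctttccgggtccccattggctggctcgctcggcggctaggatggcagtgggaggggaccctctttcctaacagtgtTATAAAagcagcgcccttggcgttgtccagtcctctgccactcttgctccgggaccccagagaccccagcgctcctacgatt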

How the data were processed

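The deposited table holds 1 FPKM value per gene and library, estimated by the authors, for 24043 rows. Its name calls them counts, but they are not whole numbers. Per the submitters' processing notes, the tools were STAR 2.5, Cufflinks 2.2.1 and DESeq2, and the genome build was mm9. The steps each tool served, the gene models and the filters were not stated. Per the labels' protocols, cells went straight into cDNA synthesis, without RNA extraction, using SMART-Seq v4 reagents, which do not mark strand. The 27 rows whose symbol a spreadsheet had turned into a date were left out.

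The analysis used log2(FPKM + 1) of genes whose mean reached 1 FPKM. All 6 libraries entered 1 limma-trend fit (limma 3.58.1, R 4.3.3) with group alone as covariate. This scale understates changes of low genes. P-values reflect how these 6 libraries vary, and that variation may be technical. The fit was tested on simulated data whose spread was capped below that of many genes here. That test therefore does not show how many real changes the fit would miss in these libraries. No count test applied, since FPKM are not counts. The 10 genes, the lists and the tests were chosen with earlier results of these data known.

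Named genes were the 10, the 2 of highest mean FPKM in each list and any called gene, and the 3 most correlated genes of each of the 10, of which all 3 are printed for Vim and Gsn and the first for Tpm4, Actb and Actg1. Other genes, marker genes outside the top 2 included, were named after their values were seen. The separate values of 1 actin list and 1 marker list are not reported here. Coding sequences came from GENCODE M21 (GRCm38) and served no values. Depth was inferred from FPKM times length in 2172 genes with a single transcript of at least 1.5 kb. It is approximate, and no counting intervals are given. Alternatives were 2 pseudocounts, 2 filters, 3 scalings, library weights, a replicate block and 9 fits that left out libraries.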

Additional observations from a re-analysis of the deposited data

How the results depend on the processing

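Over 18 other settings, the count of genes called by limma stayed at 0 of those tested, except 8 with library weights (all lower in Krt15-positive libraries) and 1 without Krt15-negative replicate 2. The fits that left out 1 library gave 0 to 1. The genes called with library weights were Rarres2, Fxyd1, Col3a1, Igfbp6, Mfap5, Dpt, Mgp and Serpinf1. Without Krt15-negative replicate 2 the called gene was Saa3, also lower in Krt15-positive libraries. Col3a1, Mfap5 and Dpt are on the fibroblast marker list, and Igfbp6 was the gene most like Vim. None of the called genes was among the 10 or in the actin lists, whose own count was 0 in every setting. Replicate numbers go with identifiers shared by both groups, whose meaning is not stated, and same-numbered libraries correlated at 0.128, 0.168 and 0.0089 in their deviations from the group means. Libraries of different numbers correlated at -0.164 to 0.0286. Same-numbered libraries were not treated as pairs, since the labels do not say what the identifiers stand for. With the replicate block limma called 0 genes, and 479 at an unadjusted p below 0.05, against 370 without the block. The differences of Tmsb4x, Tmsb10, Gsn, Tpm4 and Vim kept their sign in all 18 settings. That of Actb changed sign in 6, Pfn1 in 5, Actg1 in 2, and Cfl1 and Tagln2 in 1 each, and the cause was not tested. Over all genes the median difference came to 0.48 with upper-quartile scaling, 0.71 with median-of-ratios scaling and 0.04 with quantile normalization. At 3 libraries per group the intervals of most of the 10 genes span both signs. Depth is known only as an estimate, so a value of 0, as for Vim in Krt15-positive replicate 1, sets no upper limit.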

Other observations

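Several of the 10 genes had their highest value under the same replicate number in both groups. In Actg1, Cfl1 and Pfn1 the order of the remaining libraries differed between the groups. How many of all genes share a highest replicate was not counted. Actg1 was highest in replicate 2 of each group, at 1325 FPKM in the Krt15-positive and 1308 FPKM in the Krt15-negative library. Cfl1 was likewise highest there, at 912 and 746 FPKM, and so was Tpm4, at 147 and 83.4 FPKM. Krt15 shared this pattern, with 9692 FPKM in Krt15-positive and 6784 FPKM in Krt15-negative replicate 2. Pfn1 was highest in replicate 3 of each group, at 3127 and 3116 FPKM, and Tmsb4x in replicate 1, at 12128 and 19703 FPKM, while the other 5 genes (Tmsb10, Actb, Gsn, Tagln2 and Vim) had their highest values under different numbers.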
